A study of Mus musculus with 12 samples.

Results

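The Toll-like receptor genes Tlr1, Tlr2, Tlr3, Tlr4, Tlr6, Tlr7, Tlr8, Tlr9 and Tlr13 and the co-receptor gene Cd14 were followed through RNA sequencing of cells sorted from mouse brain. The 10 genes were chosen by symbol from the 54547 genes of the deposited table, and all 10 passed the filter on low values that the tests used. There were 12 libraries in 4 groups of 3. Brain tumors of Msi1-CreER;RasV12 mice gave GFP+ cells and CD11b+ phagocytes, and the cerebellum of Msi1-CreER;GFP control mice gave the same kinds of cells. All mice were on a mixed 129 and C57BL/6 background, and all carried Msi1-CreER, an inducible Cre recombinase tied to Msi1, a gene of neural stem and progenitor cells. RasV12 is an oncogenic form of Ras. The sources used here give no ages, induction times, sort gates or cell numbers, nor the allele that made RasV12 cells GFP+. Tumor and cerebellum differ in tissue as well as in genotype, and these cannot be told apart. Whether each replicate is a separate mouse is not in the labels, and the p-values cover only the spread among these 12 libraries, some of which may be technical.

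Toll-like receptors recognise conserved molecules of microbes and of damaged cells. One set sits at the cell surface and binds lipids and lipoproteins, and another sits in endosomes and binds nucleic acids. Nearly all signal through the adaptor encoded by Myd88, Tlr3 through the adaptor encoded by Ticam1 and Tlr4 through both, and the signal ends in NF-kB and interferon regulatory factors that induce cytokines. In the brain, microglia and other myeloid cells are the main carriers of most of these receptors.

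Values are normalized counts, the deposited read counts divided by a factor per library, unless FPKM is named, which also divides by gene length. Means are given ± SD with n = 3 libraries in every group. Read totals ran from 2951629 to 23589310 in RasV12 CD11b+ libraries, from 7883870 to 34601205 in control CD11b+ libraries, from 21227344 to 34432725 in RasV12 GFP+ libraries and from 18519240 to 32624399 in control GFP+ libraries. The RasV12 CD11b+ libraries 1 and 2 were the shallowest, and 1 read there was worth 4.46 and 5.54 normalized counts. Genes of odorant, vomeronasal and taste receptors, which these cells should not use, gave a background of 60.01 to 91.11 normalized counts per kb of exon in RasV12 CD11b+ libraries. That background was 4.66, 38.1 and 4.82 in control CD11b+ libraries 1, 2 and 3, 1.86 to 3.45 in RasV12 GFP+ libraries and 0.85 to 1.95 in control GFP+ libraries. The 3 RasV12 CD11b+ libraries and control CD11b+ 2 stand apart by this measure, and each member below is set beside the count that this background would give for its exon length. It is a rough guide, since Tlr9 stood far below it in RasV12 CD11b+ libraries. Itgam, which encodes CD11b, averaged 1936 ± 1009 in RasV12 CD11b+ libraries and 5117 ± 126 in control CD11b+ libraries, and 1 read of it was found over all 6 GFP+ libraries.

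Tlr1 and Tlr6 lie side by side on the minus strand of chromosome 5, at chr5:64924679-64933563 and chr5:64952031-64960097 (GRCm38). Their coding sequences of 2388 and 2421 bases share 454 words of 50 bases, 19.4% and 19.1% of the words of each. No other pair among these genes and Tlr5, Tlr11 and Tlr12 shared a word of that length. The longest stretch without a difference is shown because a read inside it cannot be assigned to either gene, so the Tlr1 and Tlr6 counts are uncertain to that extent. It spans coding bases 1468 to 1696 of Tlr1 and 1507 to 1735 of Tlr6, 229 bases in all, taken from the reference transcripts of GRCm38.
Tlr1 and Tlr6, shared run: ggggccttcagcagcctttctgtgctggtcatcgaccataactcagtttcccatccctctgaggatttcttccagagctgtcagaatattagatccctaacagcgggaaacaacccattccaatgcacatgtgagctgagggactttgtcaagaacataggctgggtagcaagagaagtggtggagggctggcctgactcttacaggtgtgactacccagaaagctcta

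Among GFP+ cells, Cd14 had reads in every RasV12 library and no read in any control library. It was the only one of the 10 genes called, that is, past an adjusted p of 0.05 in limma's test over all 29835 genes tested, where 6.79% of genes were called in either direction, 4.14% higher and 2.65% lower. Tlr4, its signalling partner, was higher in all 3 RasV12 libraries than in any control library but did not pass. All 3 RasV12 values stood above all control values in 17.2% of all genes tested. The other members were low, at 0 or scattered in GFP+ cells. The question behind this comparison is how the tumor cells differ from GFP+ cells of control tissue.

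Cd14 encodes the surface protein that hands lipopolysaccharide to the Tlr4 complex and lies at chr18:36725067-36726798 on the minus strand. It had 131.9, 146.2 and 90.8 normalized counts in RasV12 GFP+ libraries, from 292, 255 and 254 reads, and no read in the 3 control GFP+ libraries. The groups do not overlap, and the RasV12 values stood 27.6-fold above the receptor-gene background. Against a floor of 3 reads over the control group, placed in the library where a read is worth the most, the mean of Cd14 was at least 120.9-fold higher. The fitted log2 change was 6.93 ± 0.68 (SE; 95% interval 5.47 to 8.38; adjusted p = 8.97e-05). Cd14 passed in 24 of 24 alternatives, with adjusted p between 6.56e-12 and 0.0143. Cd14 is also a gene of monocytes and microglia. The 14 microglial and myeloid markers in the table summed to 379.5 to 920.4 in RasV12 GFP+ libraries and 215.0 to 1353 in control GFP+ libraries. Their median log2 change was 1.66, beside 0.56 over all genes tested, with 1 called lower and 0 higher, so the overlapping sums do not describe the list as a whole. Tmem119 was at 0 in every RasV12 GFP+ library, and Itgam, Csf1r, Aif1 and Fcrls were at 0 in every control GFP+ library. Csf1r, the receptor for colony stimulating factor on these cells, had 23.0, 1.7 and 3.6 normalized counts in RasV12 GFP+ libraries. The 7 monocyte markers summed to 2074 to 3045 in RasV12 GFP+ libraries and 315.2 to 558.9 in control GFP+ libraries. Of them Vcan, a matrix proteoglycan gene also used outside monocytes, averaged 2527 ± 488 in RasV12 and 120 ± 106 in control GFP+ libraries, while Ly6c2 was at 0 in every RasV12 GFP+ library. The 8 neutrophil markers summed to 2.8 to 46.5 in RasV12 GFP+ libraries and 0.8 to 48.1 in control GFP+ libraries. The 6 B cell and plasmacytoid markers summed to 144.1 to 181.2 in RasV12 GFP+ libraries and 5.6 to 62.0 in control GFP+ libraries. Markers of mature brain cells and erythroid cells were lower in RasV12 GFP+ libraries without overlap. The 7 oligodendrocyte markers summed to 2863 to 17700 in RasV12 GFP+ libraries and 948169 to 1590303 in control GFP+ libraries. The 7 neuron markers summed to 1422 to 2178 in RasV12 and 63040 to 86767 in control GFP+ libraries, and the 7 astrocyte markers to 34290 to 89129 in RasV12 and 258975 to 268380 in control GFP+ libraries. The 5 erythroid markers summed to 82.9 to 506.8 in RasV12 and 8894 to 774410 in control GFP+ libraries. Mitochondrial genes took 1.53 to 2.62% of counts in RasV12 GFP+ libraries and 20.1 to 30.4% in control GFP+ libraries. The part of cell make-up or RNA quality in the changes of Cd14 and its pathway among GFP+ cells was not tested.

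Tlr4 encodes the lipopolysaccharide receptor and lies at chr4:66827584-66930284 on the plus strand. It had 170.7, 540.0 and 263.6 normalized counts in RasV12 GFP+ libraries, against 70.1, 36.1 and 0 in control GFP+ libraries. The lowest RasV12 library stood above the highest control library, and the means of 324.8 ± 192.1 and 35.4 ± 35.1 differed 9.17-fold. The fitted log2 change of 4.40 ± 1.28 (95% interval 1.64 to 7.15) narrowly missed the threshold with an adjusted p of 0.0569. It passed in 5 of 24 alternatives, among them the fit without control GFP+ replicate 1 (adjusted p = 0.0224), and its adjusted p over the alternatives ran from 0.0147 to 0.344.

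**Figure D1:**
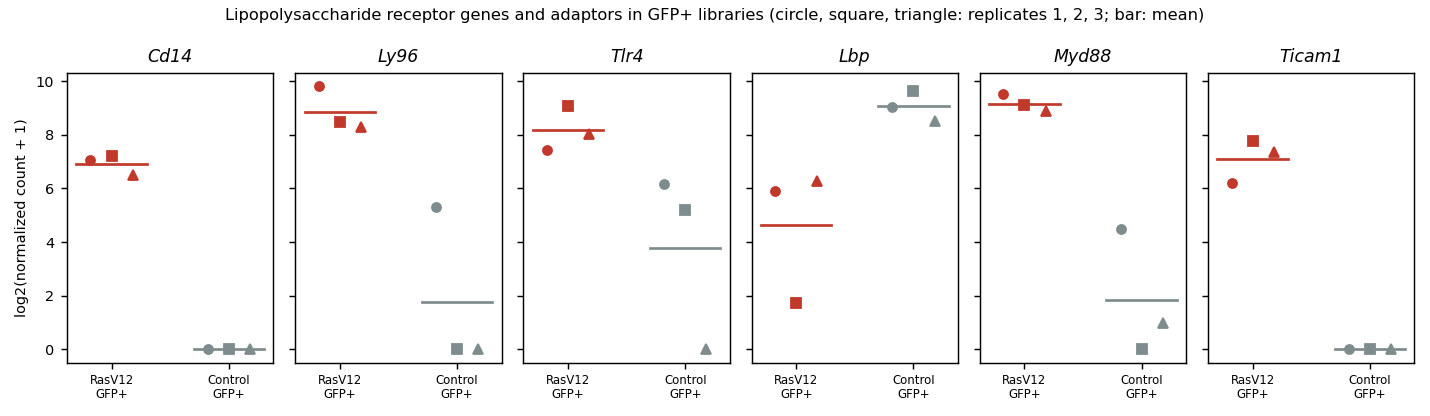
Levels of Cd14, Ly96, Tlr4, Lbp, Myd88 and Ticam1 in RasV12 GFP+ libraries (left, red) and control GFP+ libraries (right, grey), on a log2(normalized count + 1) axis; symbols are the 3 replicates and bars the means. Cd14 and Ticam1 were at 0 in all 3 control libraries, and Lbp ran the other way, with 2.3 to 76.2 normalized counts in RasV12 libraries and 365.2 to 792.4 in control libraries.

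The other parts of the lipopolysaccharide receptor were measured in the same libraries. Ly96 encodes MD-2, the protein that holds lipopolysaccharide beside Tlr4. It had 894.2, 356.0 and 309.4 normalized counts in RasV12 GFP+ libraries, against 38.6, 0 and 0 in control GFP+ libraries, and rose by 7.09 ± 1.31 on the log2 scale (limma, adjusted p = 0.00575). Lbp, which encodes the secreted carrier that delivers lipopolysaccharide to Cd14, had 58.7, 2.3 and 76.2 normalized counts in RasV12 GFP+ libraries, against 520.9, 792.4 and 365.2 in control GFP+ libraries. Its log2 change was -4.43 ± 1.21 (limma, adjusted p = 0.0432), so the membrane-side and the secreted component moved in opposite directions. The common adaptor gene Myd88 had 726.2, 549.7 and 471.4 normalized counts in RasV12 GFP+ libraries, against 21.4, 0 and 1.0 in control GFP+ libraries (log2 change 7.34 ± 1.13; limma, adjusted p = 0.00193). Ticam1, the gene of the TRIF adaptor, had 73.2, 218.4 and 161.3 normalized counts in RasV12 GFP+ libraries and no read in control GFP+ libraries (limma, adjusted p = 0.00132). Of the genes plotted, all but Tlr4 had passed, and they were not picked as a sample of the pathway.

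Tlr2 encodes the lipoprotein receptor that pairs with the products of Tlr1 or Tlr6 and lies at chr3:83836272-83841767 on the minus strand. In GFP+ cells these genes were near the bottom of the scale. Tlr2 had 20.3, 8.6 and 0 normalized counts in RasV12 GFP+ libraries and no read in control GFP+ libraries (log2 change 2.56 ± 1.36; limma, adjusted p = 0.346). Tlr1 had 0, 32.1 and 8.6 normalized counts in RasV12 GFP+ libraries, against 0, 0 and 3.1 in control GFP+ libraries (adjusted p = 0.42 by limma). Tlr6 had 5.9, 177.1 and 40.8 normalized counts in RasV12 GFP+ libraries, against 1.2, 0 and 11.2 in control GFP+ libraries (log2 change 3.63 ± 1.37; limma, adjusted p = 0.147). For all 3 genes the RasV12 and control values overlap, and RasV12 replicate 2 held the highest Tlr1 and Tlr6 values.

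The nucleic acid receptors other than Tlr3 had few or no reads in GFP+ cells. Tlr3, the receptor for double-stranded RNA at chr8:45395665-45411080 on the minus strand, had 100.3, 300.4 and 263.9 normalized counts in RasV12 GFP+ libraries, against 412.8, 0 and 831.2 in control GFP+ libraries. Its direction was not settled: the mean was lower in RasV12 libraries, the fitted log2 change was 1.52 ± 1.93 (limma, adjusted p = 0.776), and without control GFP+ replicate 2 it was -1.55. Libraries did not mark strand, but the gene antisense to Tlr3 had at most 1.8 normalized counts in any library. Tlr7, a receptor for single-stranded RNA, had 3.2, 0 and 42.9 normalized counts in RasV12 GFP+ libraries and no read in control GFP+ libraries (adjusted p = 0.386 by limma). Tlr8 and Tlr9 had no read in any of the 6 GFP+ libraries, and Tlr13 had 5 reads over the RasV12 GFP+ libraries and none over the control ones. Of the 30 values of the 10 genes in each group, 11 were without reads in RasV12 GFP+ libraries and 23 in control GFP+ libraries. Fewer genes of any kind had reads in control GFP+ libraries, 17669 to 21101, against 26528 to 28240 in RasV12 GFP+ libraries. Values without reads were thus commoner in control GFP+ libraries over all genes. The part of this in the zeros of Cd14, Ticam1 and the other genes was not tested. The median log2 change over the 10 genes was 2.30, beside 0.56 over all genes tested.

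**Figure D2:**
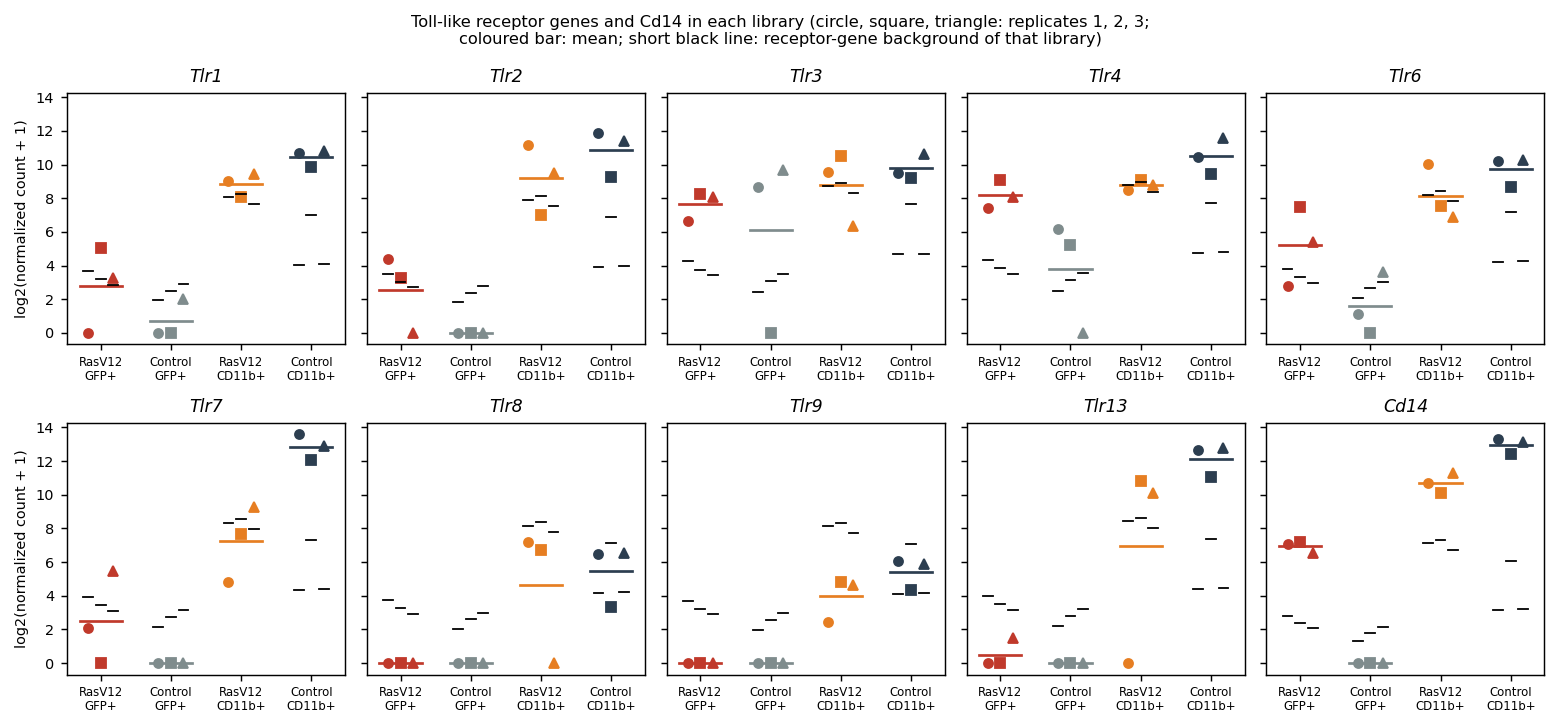
The 10 genes in all 12 libraries, RasV12 left of control for GFP+ and then CD11b+ cells, on a log2(normalized count + 1) axis; symbols are replicates, coloured bars means and short black lines the count that the receptor-gene background of that library would give. In control CD11b+ libraries 8 of the genes stood above that line in all 3 libraries, while in RasV12 CD11b+ libraries Tlr8 and Tlr9 stood below it in all 3 and Tlr4 lay on it.

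Among CD11b+ phagocytes, the endosomal RNA receptor gene Tlr7 was lower in tumors than in control cerebellum, and it was the only one of the 10 genes called, where 5.36% of all genes were called in either direction, 2.39% lower and 2.97% higher. The count behind these shares, 1599 genes, was 373 without control CD11b+ replicate 1, 382 without control CD11b+ replicate 3 and 5248 without control CD11b+ replicate 2. For Tlr1, Tlr4, Tlr7, Tlr13 and Cd14, 5 of the 10, all RasV12 values were below all control values, as in 8.59% of all genes tested. The fitted change was below 0 for all 10 genes, with a median of -1.62 beside 0.74 over all genes tested. That direction depends on the scaling: when each CD11b+ library was scaled to its summed myeloid markers, the changes of Tlr1, Tlr2, Tlr3, Tlr4, Tlr6, Tlr8 and Tlr9 turned above 0. That scaling moved all genes up, with a median change of 2.53 over all genes tested and 0.52 over the 10 genes. In bulk samples, fewer cells of a type and less RNA per cell cannot be told apart.

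Tlr7 lies at chrX:167304929-167330558 on the minus strand. It had 26.7, 199.4 and 605.4 normalized counts in RasV12 CD11b+ libraries, from 6, 36 and 1008 reads, against 12266.3, 4292.8 and 7711.2 in control CD11b+ libraries, from 15648, 2868 and 17762 reads. The groups are far apart, with means of 277 ± 297 and 8090 ± 4000 that differ 29.2-fold. The fitted log2 change was -5.63 ± 1.42 (95% interval -8.68 to -2.57; limma, adjusted p = 0.0382). The RasV12 mean was 0.88 times the receptor-gene background and only replicate 3 stood above it, whereas the control mean stood 124.9-fold above it. Tlr7 passed in 14 of 26 alternatives (adjusted p 0.0105 to 0.304). Among the settings that lost it were edgeR (adjusted p = 0.0983) and limma on the 6 CD11b+ libraries (0.118). It was also lost in limma without RasV12 CD11b+ replicate 1 (0.0972) or 2 (0.0668), without control CD11b+ replicate 1 (0.155) or 3 (0.141), and without RasV12 GFP+ replicate 1 (0.052). The call was lost too without RasV12 CD11b+ replicates 1 and 2 together, a fit that leaves 1 library, with 605.4 normalized counts, in that group.

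Tlr13 encodes an endosomal receptor for bacterial ribosomal RNA that mice have and humans lack, at chrX:106143204-106160493 on the plus strand. It had 0, 1777.7 and 1117.1 normalized counts in RasV12 CD11b+ libraries, against 6359.7, 2122.5 and 6856.8 in control CD11b+ libraries. All RasV12 values were below all control values, but the log2 change of -5.17 ± 2.14 did not pass (limma, adjusted p = 0.15). The library without a read, RasV12 CD11b+ 1, had 3642570 reads, and its limit of 3 reads corresponds to 13.4 normalized counts. Tlr8, the neighbour of Tlr7 at chrX:167242696-167264329 on the minus strand, had 147.1, 105.2 and 0 normalized counts in RasV12 CD11b+ libraries, against 88.6, 9.0 and 93.3 in control CD11b+ libraries. Tlr9, the receptor for unmethylated CpG DNA at chr9:106222598-106226883 on the plus strand, had 4.5, 27.7 and 23.4 normalized counts in RasV12 CD11b+ libraries, against 65.8, 19.5 and 57.7 in control CD11b+ libraries. Both were low, and both were under the receptor-gene background in all 3 RasV12 CD11b+ libraries and in control CD11b+ 2. In control CD11b+ 1 and 3 both stood above it, with 113 and 215 reads for Tlr8 and 84 and 133 for Tlr9. Tlr3 had 744.2, 1456.5 and 79.9 normalized counts in RasV12 CD11b+ libraries, against 731.4, 583.8 and 1585.5 in control CD11b+ libraries, with overlapping groups. The adjusted p by limma was 0.785 for Tlr8, 0.392 for Tlr9 and 0.77 for Tlr3.

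Cd14 had the highest mean of the 10 genes in CD11b+ cells of either origin per length, though not the highest count in every library. It had 1684.5, 1096.6 and 2477.9 normalized counts in RasV12 CD11b+ libraries, against 10123.9, 5361.5 and 9120.0 in control CD11b+ libraries. The groups do not overlap, and the means of 1753 ± 693 and 8202 ± 2510 make it 4.68-fold lower, but the log2 change of -2.25 ± 0.68 (95% interval -3.71 to -0.80) missed the threshold (limma, adjusted p = 0.0672). It passed in 8 of 26 alternatives (adjusted p 0.000997 to 0.878), including the fit without control CD11b+ replicate 2 (0.0358). Tlr4 had 361.0, 542.7 and 433.6 normalized counts in RasV12 CD11b+ libraries, against 1378.9, 697.5 and 3069.4 in control CD11b+ libraries (log2 change -1.70 ± 1.28; limma, adjusted p = 0.4). The RasV12 mean was 1.04 times the receptor-gene background, and the control mean stood 19.5-fold above it.

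None of the lipoprotein receptor genes passed among CD11b+ cells. Tlr2 had 2286.1, 127.4 and 708.7 normalized counts in RasV12 CD11b+ libraries, against 3797.2, 604.7 and 2680.8 in control CD11b+ libraries. Tlr1 had 508.0, 265.8 and 681.6 normalized counts in RasV12 CD11b+ libraries, against 1614.0, 928.0 and 1776.9 in control CD11b+ libraries, and these groups do not overlap. Tlr6 had 1042.8, 182.8 and 115.3 normalized counts in RasV12 CD11b+ libraries, against 1204.1, 401.1 and 1231.2 in control CD11b+ libraries. The adjusted p by limma was 0.453 for Tlr2, 0.415 for Tlr1 and 0.468 for Tlr6, and for Tlr2 and Tlr6 the groups overlap.

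**Figure D3:**
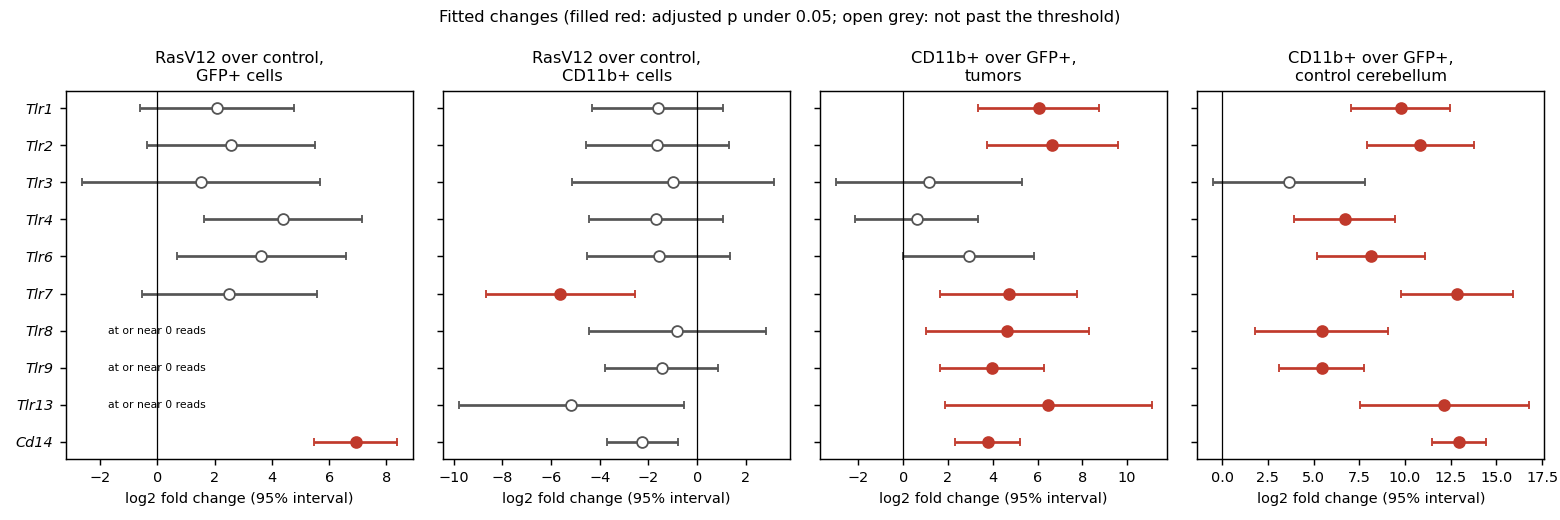
Fitted log2 fold changes of the 10 genes with 95% intervals in 4 comparisons, RasV12 over control in GFP+ and in CD11b+ cells and CD11b+ over GFP+ cells in tumors and in control cerebellum; filled red points passed an adjusted p of 0.05. Cd14 passed among GFP+ cells (6.93) and Tlr7 among CD11b+ cells (-5.63), and the intervals of most other members in the RasV12 comparisons span 0.

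Summed markers of some cell types were also lower in RasV12 CD11b+ libraries. The 14 myeloid markers summed to 101149 to 151933 in RasV12 CD11b+ libraries and 285458 to 864061 in control CD11b+ libraries. The median log2 change of these 14 was -2.06, with 0 called lower and 0 higher. The 8 neutrophil markers summed to 3571 to 4862 in RasV12 and 19920 to 38860 in control CD11b+ libraries, with Ly6g at 0 in every RasV12 library. The 6 B cell and plasmacytoid markers, cell types that use Tlr7 and Tlr9, summed to 4519 to 5787 in RasV12 and 12476 to 27102 in control CD11b+ libraries. Their median log2 change was 1.29, with 1 called lower and 0 higher, so the lower sum does not describe the list as a whole. The 7 monocyte markers overlapped between the groups, at 7281 to 10307 in RasV12 and 3851 to 15073 in control CD11b+ libraries. Summed markers of neurons and endothelial cells ran the other way, but those of oligodendrocytes were lower. The 7 neuron markers summed to 3643 to 7010 in RasV12 and 1204 to 3130 in control CD11b+ libraries, and the 6 endothelial markers to 4442 to 5054 in RasV12 and 580.5 to 2387 in control CD11b+ libraries. The neuron markers had a median log2 change of 0.0724, with 1 called higher, so their higher sum does not describe that list as a whole. The 7 oligodendrocyte markers summed to 5597 to 9066 in RasV12 and 13077 to 15233 in control CD11b+ libraries. Sums of astrocyte and erythroid markers overlapped between the groups. Mitochondrial genes took 13.3 to 17.7% of counts in RasV12 and 0.63 to 2.54% in control CD11b+ libraries. The part of cell make-up, background or RNA quality in the changes of the members was not tested. Per 1000 counts of the 14 myeloid markers, Cd14 had 11.3, 10.8 and 16.3 normalized counts in RasV12 CD11b+ libraries, against 11.7, 18.8 and 11.4 in control CD11b+ libraries. Tlr7 had 0.18, 1.97 and 3.98 in RasV12 CD11b+ libraries, against 14.2, 15.04 and 9.67 in control CD11b+ libraries on that scale. Cd14 thus overlapped between the groups on this scale, and Tlr7 did not. The scaling depends on the markers chosen, since those in the sum did not fall alike. P2ry12 averaged 5451 in RasV12 and 59607 in control CD11b+ libraries, and Ptprc 6469 and 7844. In a fit with this scaling, added after the data were seen, the log2 change was -0.11 ± 0.47 for Cd14 (adjusted p = 0.878) and -3.50 ± 1.08 for Tlr7 (adjusted p = 0.0589), both by limma.

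**Figure D4:**
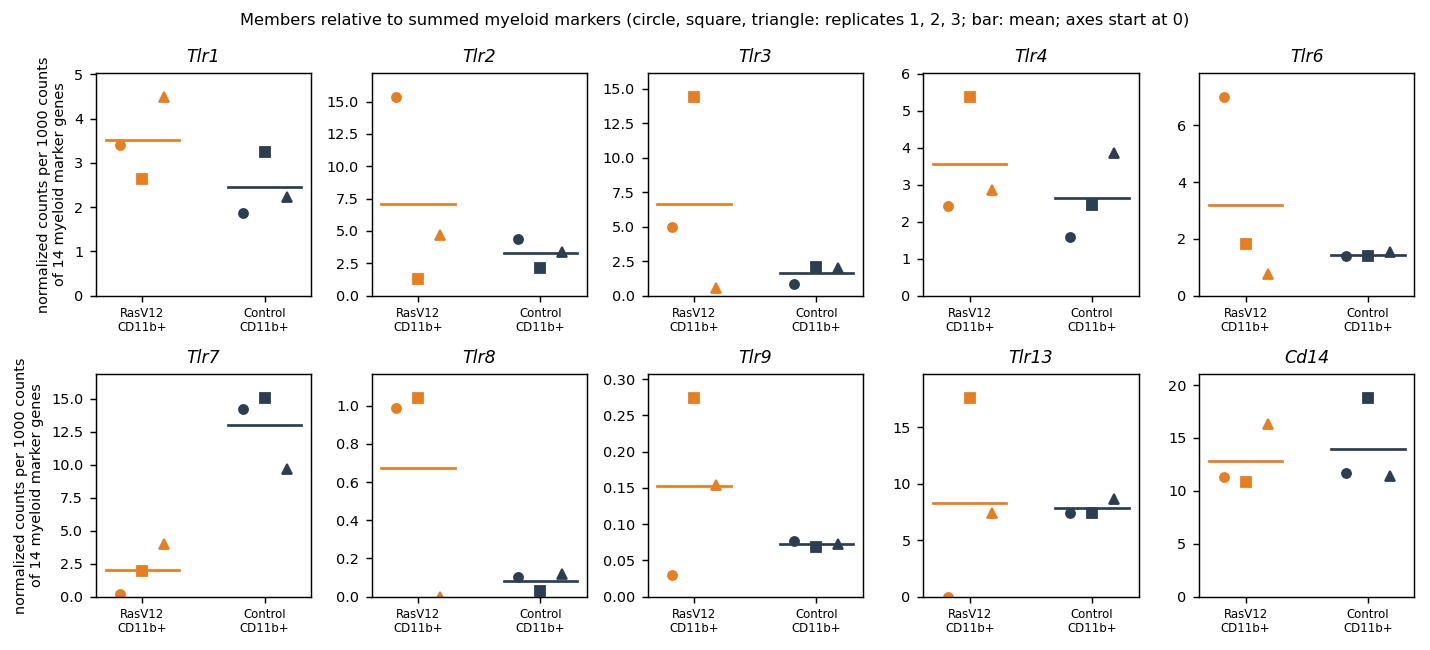
Normalized counts of each gene per 1000 counts of 14 myeloid marker genes in RasV12 CD11b+ libraries (left) and control CD11b+ libraries (right); symbols are the 3 replicates, bars the means, and each axis starts at 0. Tlr7 lies between 0.18 and 3.98 in RasV12 libraries and between 9.67 and 15.04 in control libraries, while Cd14 overlaps.

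Compared per length, the receptors also made up a different mixture. The 9 Toll-like receptor genes summed to 86.9, 64.2 and 59.5 FPKM in RasV12 CD11b+ libraries, against 423.4, 144.1 and 373.0 FPKM in control CD11b+ libraries. Tlr7 made up 0.46, 4.52 and 14.96% of that sum in RasV12 CD11b+ libraries, against 42.6, 43.8 and 30.4% in control CD11b+ libraries. Tlr7 was the most abundant of the 9 in each control library, while in RasV12 libraries 1, 2 and 3 the first place went to Tlr2 (52.4%), Tlr13 (40.7%) and Tlr13 (27.6%). In RasV12 CD11b+ cells the mean FPKM fell in the order Cd14 (66.9), Tlr2 (20.7), Tlr13 (14.2), Tlr3 (8.77), Tlr1 (8.70), Tlr6 (7.20), Tlr4 (4.83), Tlr7 (4.07), Tlr8 (1.43) and Tlr9 (0.33), and every pair of neighbours overlapped. In control CD11b+ cells it was Cd14 (313.0), Tlr7 (118.9), Tlr13 (75.1), Tlr2 (47.0), Tlr1 (25.8), Tlr4 (18.5), Tlr6 (15.2), Tlr3 (11.1), Tlr8 (1.10) and Tlr9 (0.80). There Cd14 stood clear of Tlr7 and Tlr3 clear of Tlr8, and the other neighbours overlapped. In RasV12 GFP+ cells Cd14 (4.70 FPKM), Tlr4 (3.47) and Tlr3 (2.57) led, and in control GFP+ cells Tlr3 (4.80) led with Cd14 at 0.

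**Figure D5:**
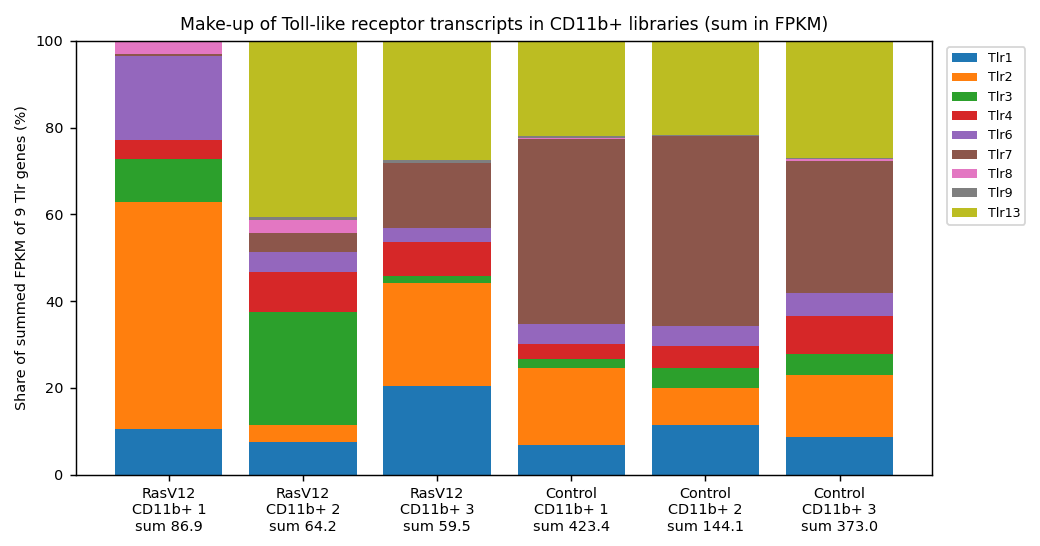
Share of each Tlr gene in the summed FPKM of the 9 Tlr genes in RasV12 CD11b+ libraries (left 3 bars) and control CD11b+ libraries (right 3 bars), with the sum under each bar. Tlr7 (brown) takes 0.46 to 14.96% in RasV12 libraries and 30.4 to 43.8% in control libraries, and the RasV12 libraries differ among themselves.

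Tlr7, Tlr8 and Tlr13 are X-linked, and the libraries split by sex-linked transcripts. Replicate 3 of every group carried Xist, the transcript of the inactive X chromosome, at 5066 and 3161 normalized counts in RasV12 and control GFP+ cells and at 2115 and 15293 in RasV12 and control CD11b+ cells. Replicates 1 and 2 had at most 22.2. Each group thus held 1 library of this kind. Among replicates 1 and 2 alone, Tlr7 had 26.7 and 199.4 normalized counts in RasV12 CD11b+ libraries, against 12266.3 and 4292.8 in control CD11b+ libraries, and in replicate 3 it had 605.4 in the RasV12 library, against 7711.2 in the control library.

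Most of the 10 genes were higher in CD11b+ phagocytes than in GFP+ cells of either tissue. In tumors 7 of the 10 genes were called higher in CD11b+ cells, but so were 29.8% of all genes (10.2% were lower and 40.1% called in either direction), and 57.9% of the 1042 receptor genes used as background that could be tested. In control cerebellum 9 of the 10 were called higher, where 19.3% of all genes were (6.91% lower, 26.2% in either direction) and 29.6% of the receptor genes. The median log2 change of the 10 genes was 4.31 in tumors, beside 1.79 over all genes, and 8.95 in control cerebellum, beside 1.80. CD11b+ libraries are the ones with the high receptor-gene background, and after its subtraction 1 of the 10 in tumors (Cd14) and 5 in control cerebellum were called.

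In tumors, Cd14 was 14.3-fold higher in CD11b+ cells than in GFP+ cells (log2 change 3.77 ± 0.68; limma, adjusted p = 0.00181), and no value overlapped. Tlr2 rose by 6.65 ± 1.36 (adjusted p = 0.00337) and Tlr1 by 6.05 ± 1.25 (adjusted p = 0.0035) on the log2 scale, both by limma. Tlr7 rose by 4.72 (adjusted p = 0.0192), Tlr13 by 6.48 (0.0289), Tlr9 by 3.97 (0.0119) and Tlr8 by 4.65 (0.0425) by limma. Of these, Tlr8 and Tlr9 stayed under the background in every RasV12 CD11b+ library, while Tlr7 stood above it in 1 and Tlr13 in 2. Single libraries carried some of these calls. Tlr7 was lost without RasV12 GFP+ replicate 1 (0.0546) or 2 (0.0851) or RasV12 CD11b+ replicate 3 (0.0677), and Tlr13 without RasV12 GFP+ replicate 1 (0.0759), 2 (0.0768) or 3 (0.0543) or RasV12 CD11b+ replicate 2 (0.123) or 3 (0.106). Tlr8 passed in 6 of 24 alternatives and was lost without 10 of the 12 libraries in turn. Tlr4 did not separate CD11b+ from GFP+ cells of tumors, at 445.8 ± 91.5 normalized counts in CD11b+ and 324.8 ± 192.1 in GFP+ libraries (log2 change 0.60, 95% interval -2.15 to 3.35; limma, adjusted p = 0.724). Tlr6 (2.92, adjusted p = 0.101) and Tlr3 (1.15, adjusted p = 0.649) did not pass in limma either.

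In control cerebellum the folds were larger, and GFP+ cells had few or no reads. The mean of Cd14 was at least 8062-fold higher in CD11b+ than in GFP+ cells (log2 change 12.95 ± 0.68; limma, adjusted p = 3.54e-07), that of Tlr7 at least 7952-fold (adjusted p = 7.1e-05), Tlr13 at least 5026-fold (0.00177) and Tlr2 at least 2321-fold (0.000178), each against 3 reads over the GFP+ group in its library where a read is worth the most. Tlr1, with 3 reads over the GFP+ group, averaged 1440 normalized counts in CD11b+ and 1.03 in GFP+ libraries, and its reads pooled over each group and divided by depth had a ratio of 2080 (exact 95% counting interval 711 to 10089; limma, adjusted p = 0.000208). By the ratio of means, Tlr6 was 229-fold higher (limma, adjusted p = 0.0013) and Tlr4 48.5-fold (0.00286). Tlr9, at least 46.9-fold higher (0.00357), and Tlr8, at least 62.5-fold higher (0.0313), rested on 230 and 334 reads in CD11b+ libraries, and Tlr8 was lost without any one of the control GFP+ libraries (0.0673 to 0.0757) or without control CD11b+ replicate 1 (0.0823) or 3 (0.0896). Tlr3 did not pass in limma (3.65 ± 1.93, adjusted p = 0.166).

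The RasV12 effect differed between the sorted populations for Cd14 and Tlr7. For 2 of the 10 genes the effect in CD11b+ cells minus that in GFP+ cells was called, both lower, where 4.4% of all genes were called in either direction, 2.34% lower and 2.06% higher. For Cd14 the difference was -9.18 ± 0.96 on the log2 scale (95% interval -11.24 to -7.12; limma, adjusted p = 0.000241), made of a rise among GFP+ cells and a lower level among CD11b+ cells that did not pass on its own. It passed in 23 of 23 alternatives. For Tlr7 the difference was -8.14 ± 2.01 (95% interval -12.46 to -3.81; limma, adjusted p = 0.0372), and it passed in 11 of 23 alternatives (adjusted p 7.18e-05 to 0.156). It was lost when any one of 9 libraries was left out: RasV12 GFP+ 1 (0.0732) or 3 (0.0869), control GFP+ 1 (0.0596), 2 (0.0582) or 3 (0.0607), RasV12 CD11b+ 1 (0.0632) or 2 (0.0533), and control CD11b+ 1 (0.105) or 3 (0.0988). Tlr4 came next, at -6.10 ± 1.81 (limma, adjusted p = 0.0751).

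Other genes of the pathway were taken from 6 lists by role, 84 tested genes in all. Among GFP+ cells 15 of them (17.9%) were called higher and 2 (2.38%) lower in RasV12 libraries, beside 4.14% and 2.65% of all genes. Of 13 co-receptors, ligand carriers and chaperones, 5 rose and 1 fell. Beside Ly96 and Lbp, these were Hsp90b1, the endoplasmic reticulum chaperone that folds Toll-like receptors, at 10861 ± 2337 in RasV12 and 3762 ± 1009 in control GFP+ libraries (limma, adjusted p = 0.0287), and Cnpy4 (1087 ± 121 and 253 ± 53.0; adjusted p = 0.036 by limma). Unc93b1, the carrier that takes nucleic acid receptors to endosomes, had 944 ± 252 in RasV12 and 236 ± 134 in control GFP+ libraries (limma, adjusted p = 0.0406). In those RasV12 libraries Tlr7, Tlr8, Tlr9 and Tlr13 had few or no reads, while Tlr3 had 100.3, 300.4 and 263.9 normalized counts. Ly86 also passed, at the very low level of 10.5 ± 10.2 in RasV12 GFP+ libraries and 0 in the control ones. Of 10 transcription factors, 1 rose, Irf8, a factor of myeloid cells that is also induced by interferon, at 260 ± 120 in RasV12 and 4.07 ± 7.04 in control GFP+ libraries (limma, adjusted p = 0.000934). Of 21 adaptors and kinases, 2 rose, Myd88 and Ticam1.

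Of 21 tested genes that the pathway induces, 4 rose among GFP+ cells. Ptgs2, the prostaglandin synthase gene, averaged 1693 ± 313 in RasV12 and 0.60 ± 0.53 in control GFP+ libraries (limma, adjusted p = 0.000466). Cxcl1, a neutrophil chemokine gene, averaged 770 ± 653 in RasV12 and 0.27 ± 0.46 in control GFP+ libraries (limma, adjusted p = 0.00584). Cd40 (adjusted p = 0.0312) and Cxcl2 (adjusted p = 0.0487) also passed in limma. Of 16 genes listed as negative regulators, 3 rose, namely Atf3, Sigirr and Socs3, and 1 fell, Irak2, whose product is known to sustain signalling rather than to stop it.

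Among CD11b+ cells 1 of the 84 genes (1.19%) was called higher and 4 (4.76%) lower in RasV12 libraries, beside 2.97% and 2.39% of all genes, so the share called was near that of all genes. Unc93b1 had 3565.0, 3854.6 and 5346.9 normalized counts in RasV12 CD11b+ libraries, against 25900.4, 8296.8 and 32860.8 in control CD11b+ libraries (log2 change -2.20 ± 0.59; limma, adjusted p = 0.0473). Per 1000 counts of the 14 myeloid markers, Unc93b1 had 23.9, 38.1 and 35.2 in RasV12 CD11b+ libraries, against 29.98, 29.1 and 41.2 in control CD11b+ libraries, and so overlapped on that scale, where Tlr7 did not. Also lower were Cnpy3, a chaperone of the family, at 506 ± 104 in RasV12 and 2289 ± 881 in control CD11b+ libraries (limma, adjusted p = 0.0174), and Hsp90b1 (adjusted p = 0.0372 by limma). The 2 called outputs were acute phase genes that went opposite ways. Saa3 had 1519.6, 504.0 and 4673.0 normalized counts in RasV12 CD11b+ libraries, against 10.2, 0 and 3.9 in control CD11b+ libraries (limma, adjusted p = 0.00596), and Lcn2 had 0, 0 and 60.1, against 2061.6, 775.3 and 2262.7 (adjusted p = 0.0194 by limma). Lcn2 is also a neutrophil gene, and the neutrophil markers were lower in the same libraries. The remaining receptors Tlr5, Tlr11 and Tlr12 averaged 3.37, 11.5 and 38.4 normalized counts in RasV12 CD11b+ libraries and 139.6, 46.3 and 220.0 in control CD11b+ libraries, with adjusted p by limma of 0.0715, 0.398 and 0.105.

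Between sorted populations, CD11b+ cells had 26 of the 84 genes (31.0%) higher and 6 (7.14%) lower than GFP+ cells in tumors, close to the 29.8% and 10.2% of all genes. In control cerebellum 43 (51.2%) were higher and 2 (2.38%) lower, beside 19.3% and 6.91% of all genes. In tumors the cytokine gene Il1b averaged 1795 ± 1286 in CD11b+ and 17.8 ± 30.8 in GFP+ libraries (limma, adjusted p = 0.00181) and the factor gene Irf5 1900 ± 979 and 0.90 ± 1.23 (adjusted p = 0.000587). Lcn2, Ptgs2 and Cxcl1 ran the other way and were lower in CD11b+ than in GFP+ cells of tumors (adjusted p by limma 0.00389, 0.0278 and 0.00851). In the difference of the RasV12 effects 1 gene (1.19%) was higher, Saa3, and 11 (13.1%) were lower, beside 2.06% and 2.34% of all genes, among them Ticam1 (-9.52 ± 1.45; limma, adjusted p = 0.00348), Irf8 (-7.99 ± 1.30; 0.00487), Unc93b1 (-4.39 ± 0.83; 0.0108) and Ly96 (-9.12 ± 1.86; 0.0149), each in the direction of Cd14.

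The genes most like each member over the 12 libraries were named by Pearson's r of log2(normalized count + 1) among 15614 or 15615 candidates. The points share 4 groups, so these values mostly reflect the gap between CD11b+ and GFP+ libraries and are a description. Cd14 was most like Pik3r6 (0.990) and Itgb2 (0.989), and Tlr7 most like Gpr183 (0.976) and Il1a (0.965). Tlr1 was most like Dok3 (0.994) and Arhgap45 (0.985), Tlr2 H2-DMb1 (0.981) and Spi1 (0.972), Tlr4 Cebpa (0.979) and Acox3 (0.963), and Tlr6 Rab3d (0.951) and Gna15 (0.950). Tlr13 was most like Mir142hg (0.988) and Ebi3 (0.981), and Tlr9 Il10ra (0.981) and P2ry13 (0.978). Tlr8 had an odorant receptor gene, Olfr1009 (0.966), and Hmx2 (0.939) as nearest genes, and Tlr3 the zinc finger genes Zfp251 (0.961) and Zfp949 (0.961).

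Promoters were searched for motifs of PU.1, NF-kB and interferon regulatory factors. Spi1, the gene of the myeloid factor PU.1, averaged 1275 ± 589 normalized counts in RasV12 CD11b+ and 3994 ± 2269 in control CD11b+ libraries, against 5.27 ± 8.78 in RasV12 GFP+ libraries and 0 in control GFP+ libraries. For 7 of the 10 members a RefSeq promoter (GRCm38.p6) was at hand, and the 250 bases before the start were searched on both strands. The PU.1 motif GAGGAAGT occurred before a start of Tlr1, as in 2.44% of 32851 promoters, but not before another start of that gene. Its shortened form GAGGAAG, chosen after the sequences were seen and contained in the longer motif, occurred before the same Tlr1 start, Tlr9 and Tlr13, as in 10.6% of promoters. The NF-kB motif, GGGA and CC with 4 bases between them, occurred before the RefSeq starts of Tlr2 and Tlr3, as in 17.6% of promoters. The interferon response motif, GAAA repeated after 2 bases, occurred before a second start of Tlr6, as in 2.98%. The Tlr3 and Tlr6 windows with these matches lie inside the gene spans given above, and not upstream of them. A match is a description of these letters and not a bound site. The stretches are printed with the match in capitals, at chr5:64933563-64933592 (minus strand) for Tlr1, chr3:83841761-83841790 (minus) for Tlr2, chr9:106222348-106222597 (plus) for Tlr9 and chrX:106143025-106143203 (plus) for Tlr13.
Tlr1: attaaatgttgGAGGAAGTaggagcttgaa
Tlr2: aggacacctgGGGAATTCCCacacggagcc
Tlr9: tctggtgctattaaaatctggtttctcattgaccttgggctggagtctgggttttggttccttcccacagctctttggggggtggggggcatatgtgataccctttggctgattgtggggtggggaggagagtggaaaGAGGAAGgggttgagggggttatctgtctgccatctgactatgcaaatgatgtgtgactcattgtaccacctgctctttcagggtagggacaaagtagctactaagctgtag
Tlr13: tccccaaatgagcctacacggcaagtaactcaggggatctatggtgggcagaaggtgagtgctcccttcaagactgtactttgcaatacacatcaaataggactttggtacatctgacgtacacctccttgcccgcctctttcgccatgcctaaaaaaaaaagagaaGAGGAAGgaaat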

How the data were processed

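RNA was isolated with Sepazol, amplified into cDNA with the SMARTer Universal kit for low input and tagged with Nextera XT, per the labels' protocols, a route that does not mark strand. The submitters' processing notes name bcl2fastq 2.17.1.14, HISAT2 2.1.0, Subread 1.6.2 with featureCounts, DESeq2 1.20.0 and GRCm38.p6, without the role of each. The authors deposited normalized counts, treated here as a signal (a count divided by a factor per library), and FPKM values with the same scaling. Divided by the value of 1 read, the deposited values came out as whole reads (tolerance 0.05) for 99.986% of values in the lowest library. Intervals and floors of 3 reads cover counting error only.

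Genes with at least 10 normalized counts in at least 3 libraries (29835) were tested on log2(normalized count + 1) in R 4.3.3 with limma-trend (version 3.58.1), 1 mean per group over 12 libraries, Benjamini-Hochberg adjustment at 0.05. Such fold changes understate the change of low genes. Alternatives were edgeR 4.0.16 quasi-likelihood and DESeq2 1.42.0 on recovered reads, the FPKM table, other pseudocounts, filters and scalings, background subtraction, array weights, a block by replicate number, fits of 6 libraries and leaving out libraries. edgeR called 1122 genes among GFP+ and 434 among CD11b+ cells between RasV12 and control. Groups came from the titles. Scripts were tested on simulated data. The members, the lists and the rule for naming up to 4 list genes by smallest adjusted p were chosen with earlier results of these data known; further list genes were named after their values were seen. Gene IDs matched GENCODE GRCm38 for 98.5% of genes.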

Additional observations from a re-analysis of the deposited data

Results flagged for a closer look

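The RasV12 effect differed between CD11b+ and GFP+ cells for Cd14 and Tlr7 by the test of the difference itself. For Cd14 the log2 difference was -9.18 (limma, adjusted p = 0.000241), with every RasV12 value above every control value among GFP+ cells and every RasV12 value below every control value among CD11b+ cells. For Tlr7 it was -8.14 (limma, adjusted p = 0.0372), with means of 277 normalized counts in RasV12 and 8090 in control CD11b+ libraries. This Tlr7 call passed in 11 of 23 alternatives. Among GFP+ cells alone Tlr7 did not pass (limma, adjusted p = 0.386), and its highest value there was 42.9 normalized counts, in RasV12 replicate 3.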

How the results depend on the processing

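Over 47 results for single members and 26 settings, 1014 of 1138 values kept direction and side of the threshold, 74 lost a call, 27 gained one and 23 changed sign; none of those 23 had passed. The number of members called between RasV12 and control GFP+ cells (1) became 2 with a pseudocount of 5 or the FPKM table, 3 with array weights and 5 with DESeq2, and 1 to 2 when single libraries were left out. Between RasV12 and control CD11b+ cells (1) it became 0 with a pseudocount of 0.5, without the filter, in the fit of 6 libraries or when scaled to myeloid markers. The Tlr7 call was also lost without RasV12 CD11b+ libraries 1 and 2, where 1 library was left in that group. With 6 libraries 4 members had unadjusted p under 0.05 by limma. In edgeR 1 member was called, Cd14 (adjusted p = 0.0491), and Tlr7 was not (0.0983). The number became 2 with a pseudocount of 5, upper-quartile scaling, the FPKM table, DESeq2 or background subtraction. It became 3 with array weights and ran from 0 to 2 without single libraries. Between CD11b+ and GFP+ cells it became 3 with edgeR, 4 with 6 libraries and 1 after background subtraction in tumors (7), with 4 to 7 without single libraries, and 5 after background subtraction in control cerebellum (9), with 8 to 9. For the difference of effects (2) it became 1 without the filter or the low-depth libraries, 3 with a pseudocount of 5, the FPKM table or array weights and 5 with DESeq2, with 1 to 2 without single libraries. Other settings gave 5 to 7 in tumors and 8 to 9 in control cerebellum. The cause of these shifts was not tested. Over all genes, settings other than leaving out 1 library gave 1122 (edgeR) to 4907 (DESeq2) calls around 2027 among GFP+ cells, 0 (limma, 6 libraries; edgeR 434, DESeq2 2357) to 4398 (3 libraries left out) around 1599 among CD11b+ cells, 4692 to 12971 around 11953 in tumors, 3648 to 11466 around 7826 in control cerebellum and 976 to 3129 around 1312 for the difference. Without single libraries the calls ran from 1042 to 2382, 373 to 5248, 8118 to 12797, 5160 to 8707 and 578 to 2227 in the same order.

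Changes of sign, on the log2 scale, were these. Among GFP+ cells Tlr3 was at -0.84 with edgeR and -0.90 with DESeq2, and ran from -1.55 to 3.30 without single libraries. Among CD11b+ cells scaling to myeloid markers, added after the data were seen, gave 0.52 for Tlr1, 0.51 for Tlr2, 1.15 for Tlr3, 0.44 for Tlr4, 0.56 for Tlr6, 1.02 for Tlr8 and 0.59 for Tlr9. DESeq2 gave 0.40 for Tlr8 there, and without single libraries Tlr3 ran from -1.84 to 0.25 and Tlr8 from -2.09 to 1.51. In tumors background subtraction gave -1.41 for Tlr3, -4.13 for Tlr4 and -0.99 for Tlr6. Tlr3 was at -1.31 without the low-depth libraries, and Tlr4 at -0.14 with upper-quartile scaling and -0.86 with edgeR. For the difference of effects DESeq2 gave 0.56 for Tlr3 and 1.19 for Tlr8, and without single libraries Tlr3 ran from -4.29 to 0.56 and Tlr8 from -2.09 to 1.51.

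With upper-quartile scaling the median change of all genes among CD11b+ cells was 0.21, against 0.74, and 559 genes were higher and 1319 lower, against 886 and 713. In tumors it was 1.19, against 1.79, with 6889 higher and 4312 lower, against 8896 and 3057. For the difference 508 were higher and 1070 lower, against 615 and 697. With edgeR 30 were higher and 404 lower among CD11b+ cells, 1536 and 3156 in tumors, 2911 and 1702 in control cerebellum (5765 and 2061), and 269 and 744 for the difference. Background subtraction gave 621 higher and 2346 lower among CD11b+ cells, 2747 and 5972 in tumors, 1716 and 1932 in control cerebellum and 502 and 1939 for the difference. Deviations of same-numbered libraries from their group means correlated at -0.03 to 0.09 over 18 pairs, other pairs at -0.12 to 0.08. Such correlations cannot decide whether the replicate numbers pair the libraries, and replicate 3 carried Xist in every group. With the replicate number as a block 1, 1, 6, 9 and 2 members were called in the GFP+, CD11b+, tumor, control and difference comparisons. The median SE of a log2 change over all genes was 1.37, which limits what small changes could be detected, and 1 read in RasV12 CD11b+ libraries 1 and 2 was worth 4.46 and 5.54 normalized counts.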
